A study of Homo sapiens with 7 samples.

Results

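The hypoxia response and glycolysis are described here across 39 genes, chosen by symbol from a list of hypoxia-inducible factors, their targets and glycolytic enzymes, of 19699 genes in the deposited count table. All 39 symbols were found. They were divided by role into 15 glycolytic enzymes, 3 glucose and lactate transporters, 4 regulators of glycolytic flux, 15 hypoxia targets outside glycolysis and the 2 hypoxia-inducible factors HIF1A and EPAS1. All 39 reached 1 CPM (counts-per-million) in at least 1 library, and all 39 passed the filter on low counts.

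The study sequenced RNA from HCT116 p53-/- cells. HCT116 is a line established from a human colon carcinoma, and the derivative lacks p53, a transcription factor activated by cellular stress. Each of 7 groups had 1 library, so no group had a replicate. The groups were cells infected with wild-type p53 and left untreated, cells infected with p53-M133T with and without arsenic trioxide (ATO), cells infected with p53-R273H with and without ATO, and control cells, called vector here, with and without ATO. Both M133T and R273H change an amino acid of the domain with which p53 binds DNA, and ATO, an arsenic compound used against acute promyelocytic leukaemia, was given at 1 µg/ml for 24 h. All 7 groups share the p53-/- background, the p53 forms were added to it by infection, and the promoter that drove them is not given in the sources used here. Wild-type p53 cells with ATO were not analysed here.

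Total counts ran between 25062996 for wild-type p53 and 39297534 for p53-M133T, and a count of 3, the most that a count of 0 allows, was worth between 0.0761 and 0.116 CPM. The wild-type library carries another numeric prefix in its name than the other 6, so what the prefix stands for and the genotype cannot be told apart in any value of that library. It also stood apart in the 15 leukocyte markers looked at: their summed level was 69.6 CPM there, against 4.92 to 9.27 CPM in the other 6 libraries. MPO at 33.6 CPM, CD68 at 27.7 CPM, LYZ at 5.77 CPM and LAPTM5 at 1.12 CPM were the markers at least 2-fold higher there than in vector, whereas PTPRC, which marks nearly all leukocytes, had 0.155 CPM and CD3E, CD3D and MS4A1 were at 0. Of 9 colon epithelium markers, EPCAM, KRT8, KRT18, KRT19, CDH1 and CDX2 reached 13.0 CPM or more in every library, while VIL1, LGALS4 and CDX1 stayed under 1 CPM. The summed level of 6 erythroid markers was 18.5 CPM with wild-type p53 and 13.8 CPM in untreated vector, against 0.953 to 1.92 CPM in the other 5 libraries, and their part in the comparisons with these libraries was not tested. Mitochondrially encoded genes took 1.41% of the counts with wild-type p53, 2.35% with ATO and 4.59% without in p53-M133T cells, 3.64% with ATO and 3.77% without in p53-R273H cells, and 2.30% with ATO and 3.69% without in vector cells, and the part of this share in the results was not tested either. Because the samples are bulk, fewer cells of a type and less RNA per cell cannot be told apart.

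Hypoxia-inducible factors are transcription factors whose alpha subunits, among them the products of HIF1A and EPAS1, are hydroxylated by the EGLN oxygen sensors when oxygen is plentiful and are then degraded through the VHL ubiquitin ligase. When oxygen is scarce the alpha subunits pair with ARNT and switch on genes that carry a hypoxia response element, which raises glucose uptake, glycolysis, blood vessel growth and mitochondrial turnover. Glycolysis converts glucose to pyruvate, which tumour cells such as those of colon carcinoma largely turn into lactate.

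The core of a hypoxia response element reads ACGTG or GCGTG, and the 250 bases before the RefSeq starts of each gene were searched for it on both strands, so that CACGTG counts on each strand. RefSeq promoters on GRCh38.p14 were found for 35 of the 39 genes, and VEGFA, SLC2A3, NDRG1 and BNIP3L had none. At least 1 core stood in 40 of 59 windows of the members (67.8%), against 15172 of 35116 windows of all genes (43.2%). It stood in 18 of 29 windows of the glycolytic enzymes (62.1%) and in 12 of 15 windows of the targets outside glycolysis (80.0%). The windows shown are examples from genes described below, with the letters of a core (ANKRD37, ADM, CA9, ALDOC, LDHA, PGK1) and without them (EGLN3, PGAM1). They were chosen with the values known and show no relation between a core and a level. They run 5′ to 3′ along the gene, and capitals mark each core on either strand. For LDHA the window of the upstream start is given. The PGAM1 window begins at 97427568, inside the gene as GENCODE places it, past its start at 97426160. The bases before that start were not searched, so this window does not show that PGAM1 lacks a core there.
ANKRD37 (chr4:185396591-185396840, plus strand): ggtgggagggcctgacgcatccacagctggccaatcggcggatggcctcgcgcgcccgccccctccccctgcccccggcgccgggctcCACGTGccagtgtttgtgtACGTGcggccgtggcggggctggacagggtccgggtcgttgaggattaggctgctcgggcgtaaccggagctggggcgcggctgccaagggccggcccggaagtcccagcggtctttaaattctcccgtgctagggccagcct
ADM (chr11:10304823-10305072, plus strand): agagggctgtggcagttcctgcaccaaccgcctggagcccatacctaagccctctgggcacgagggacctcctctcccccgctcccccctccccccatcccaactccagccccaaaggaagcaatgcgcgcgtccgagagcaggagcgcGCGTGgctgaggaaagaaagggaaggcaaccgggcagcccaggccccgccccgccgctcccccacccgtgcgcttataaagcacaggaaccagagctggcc
CA9 (chr9:35673678-35673927, plus strand): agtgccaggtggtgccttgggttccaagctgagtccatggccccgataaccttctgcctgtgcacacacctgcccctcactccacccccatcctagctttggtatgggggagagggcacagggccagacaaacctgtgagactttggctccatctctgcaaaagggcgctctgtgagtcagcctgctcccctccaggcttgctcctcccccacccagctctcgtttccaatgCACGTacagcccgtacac
ALDOC (chr17:28576896-28577145, minus strand): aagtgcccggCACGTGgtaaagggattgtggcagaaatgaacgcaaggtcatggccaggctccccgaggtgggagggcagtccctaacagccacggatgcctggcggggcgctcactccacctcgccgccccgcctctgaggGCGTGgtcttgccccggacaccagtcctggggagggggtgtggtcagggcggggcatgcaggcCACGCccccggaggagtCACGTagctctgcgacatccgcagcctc
LDHA (chr11:18394313-18394562, plus strand): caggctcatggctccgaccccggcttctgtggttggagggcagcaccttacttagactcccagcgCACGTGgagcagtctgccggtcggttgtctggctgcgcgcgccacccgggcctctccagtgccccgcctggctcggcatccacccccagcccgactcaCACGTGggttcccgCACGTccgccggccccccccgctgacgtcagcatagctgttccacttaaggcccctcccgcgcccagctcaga
PGK1 (chrX:78103998-78104247, plus strand): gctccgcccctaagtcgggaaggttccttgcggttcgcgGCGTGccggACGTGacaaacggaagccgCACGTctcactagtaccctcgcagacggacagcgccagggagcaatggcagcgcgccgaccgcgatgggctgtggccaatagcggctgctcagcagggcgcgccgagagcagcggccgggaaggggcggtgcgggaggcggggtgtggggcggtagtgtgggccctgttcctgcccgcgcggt
EGLN3 (chr14:33951075-33951324, minus strand): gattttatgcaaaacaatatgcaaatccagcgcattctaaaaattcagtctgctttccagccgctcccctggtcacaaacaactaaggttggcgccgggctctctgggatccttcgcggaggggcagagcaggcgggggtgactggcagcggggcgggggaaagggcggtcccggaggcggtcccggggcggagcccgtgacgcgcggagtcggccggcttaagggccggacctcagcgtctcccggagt
PGAM1 (chr10:97427568-97427817, plus strand): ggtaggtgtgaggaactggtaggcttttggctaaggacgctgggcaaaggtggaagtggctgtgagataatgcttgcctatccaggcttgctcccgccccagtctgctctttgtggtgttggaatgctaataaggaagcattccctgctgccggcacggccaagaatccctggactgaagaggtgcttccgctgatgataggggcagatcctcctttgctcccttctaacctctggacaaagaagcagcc
The ANKRD37 window holds 3 matches between 162 and 143 bases before the start, and the CA9 window holds 1 match, 18 bases before it. Those of ALDOC and LDHA hold 5 matches each, that of PGK1 holds 3 and that of ADM holds 1. A match describes the letters of the window, not a bound site.

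Between wild-type p53 and vector cells, both untreated, the targets outside glycolysis stood highest. Of the 39 genes, 20 were at least 2-fold higher with wild-type p53 and 0 were lower by that much, whereas among the 12661 genes with at least 1 CPM in a library 2.87% passed that size upwards and 1.96% downwards. CA9 reached 1 CPM in the wild-type library alone, at 6.97 CPM against at most 0.888 CPM elsewhere. In this and the later counts of that library it could therefore be counted only as higher. The median log2 ratio was 1.95 for the 15 targets outside glycolysis, with 10 at least 2-fold higher, and 0.74 for the 15 glycolytic enzymes, with 6 at least 2-fold higher. Over all 39 genes the median was 1.07, and over all genes it was 0.01. These are ratios of CPM after scaling by the trimmed mean of M-values (TMM) with 1 CPM added to both values. With 1 library in each group there is no test, and folds carry a 95% Clopper-Pearson interval that covers counting error alone.

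**Figure D1:**
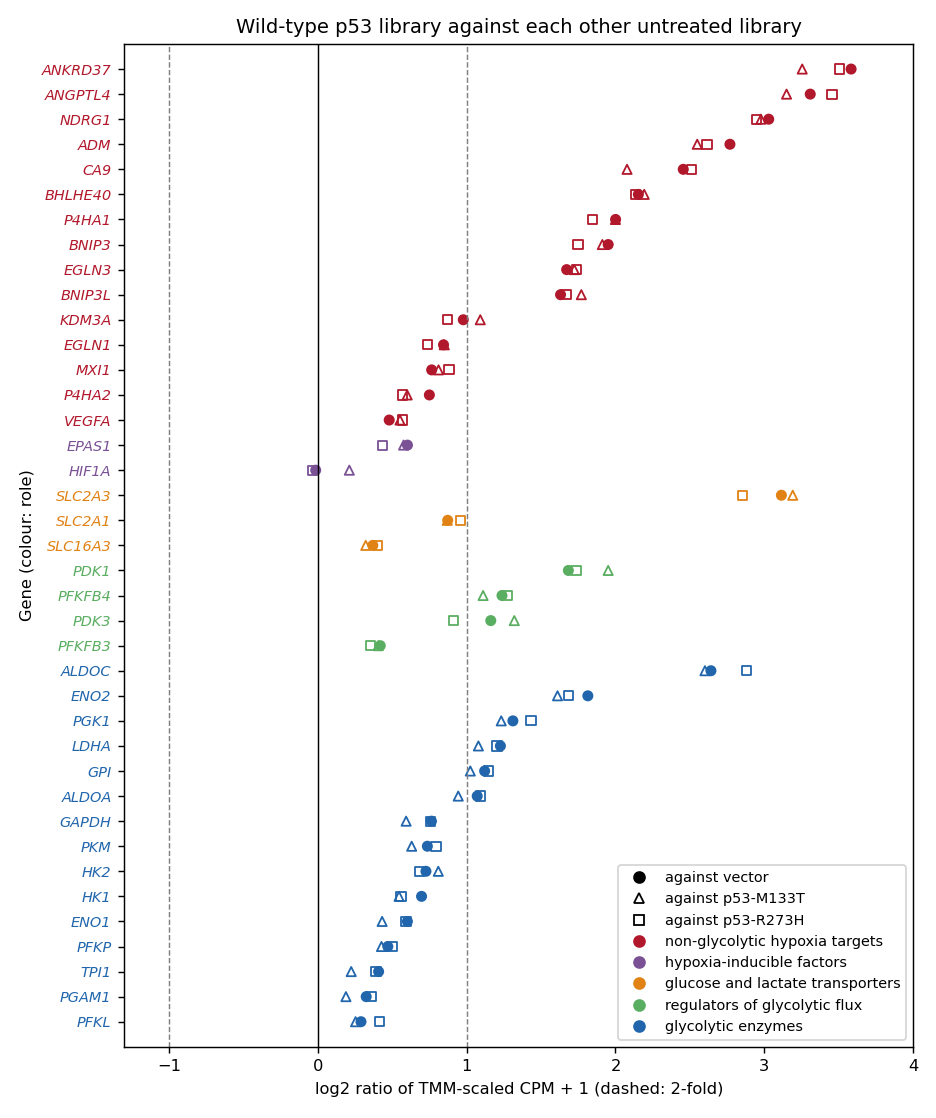
Log2 ratio of TMM-scaled CPM, with 1 CPM added, of the wild-type p53 library to each of the 3 other untreated libraries (x axis), for the 39 genes (y axis, coloured by role); each point is a ratio of 2 libraries and dashed lines mark 2-fold. The 3 ratios of a gene lie close together, and 38 genes lie right of 0 in all 3, HIF1A being the exception.

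Among the targets outside glycolysis, ANKRD37, an ankyrin repeat protein gene and HIF-1 target, had 45.6 CPM with wild-type p53, 2.46 CPM with ATO and 3.88 CPM without in p53-M133T cells, 2.46 CPM with ATO and 3.10 CPM without in p53-R273H cells, and 2.11 CPM with ATO and 2.89 CPM without in vector cells. The wild-type library was far above the other 6, none of which reached 4 CPM, and its fold over vector was 15.8 (12.9 to 19.5). UFSP2, whose exons overlap ANKRD37 on the opposite strand, had 25.0 CPM with wild-type p53 and 24.9 CPM in vector.

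ANGPTL4, a secreted inhibitor of lipoprotein lipase, had 87.9 CPM with wild-type p53, 4.17 CPM with ATO and 9.03 CPM without in p53-M133T cells, 2.11 CPM with ATO and 7.11 CPM without in p53-R273H cells, and 3.37 CPM with ATO and 7.98 CPM without in vector cells. Wild-type p53 again stood alone at the top, and within each line the ATO library was the lower one. The fold of wild-type p53 over vector was 11.0 (9.73 to 12.5).

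NDRG1, a stress-induced gene linked to differentiation, had 927 CPM with wild-type p53, 176 CPM with ATO and 117 CPM without in p53-M133T cells, 123 CPM with ATO and 119 CPM without in p53-R273H cells, and 146 CPM with ATO and 113 CPM without in vector cells. Its fold over vector was 8.23 (7.95 to 8.51). ADM, which encodes the vasodilator peptide adrenomedullin, had 107 CPM with wild-type p53, 13.7 CPM with ATO and 17.5 CPM without in p53-M133T cells, 10.5 CPM with ATO and 16.7 CPM without in p53-R273H cells, and 10.4 CPM with ATO and 14.9 CPM without in vector cells. For both genes the wild-type library lay outside the range of the other 6, with a fold over vector of 7.21 (6.56 to 7.92) for ADM.

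CA9, a cell-surface carbonic anhydrase and widely used hypoxia marker, was nearly silent outside the wild-type library. It had 180 counts (6.97 CPM) with wild-type p53, 6 counts with ATO and 35 without in p53-M133T cells, 3 counts with ATO and 14 without in p53-R273H cells, and 0 counts with ATO and 16 without in vector cells. Its fold of wild-type p53 over vector was 15.4 (9.22 to 27.5), the widest interval of the group. ARHGEF39, whose exons overlap CA9 on the opposite strand, went the other way, with 14.1 CPM with wild-type p53 and 29.8 CPM in vector.

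BHLHE40, a transcriptional repressor of the circadian clock, was 4.48-fold (4.32 to 4.66) higher with wild-type p53 than in vector. P4HA1, a catalytic subunit of the collagen prolyl 4-hydroxylase, was 4.07-fold (3.84 to 4.31) higher. BNIP3 and BNIP3L, mitochondrial receptors for mitophagy, were 3.94-fold (3.70 to 4.20) and 3.13-fold (2.98 to 3.28) higher. EGLN3, an oxygen sensor that is itself a HIF target, was 3.76-fold (3.08 to 4.61) higher.

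The other targets outside glycolysis lay under 2-fold. KDM3A, a histone H3 lysine 9 demethylase, was 1.98-fold (1.88 to 2.09) higher with wild-type p53 than in vector, EGLN1, the main oxygen sensor, 1.81-fold (1.72 to 1.90), and MXI1, a MYC antagonist, 1.71-fold (1.61 to 1.82). P4HA2, the other catalytic subunit of the prolyl 4-hydroxylase, had 63.0 CPM with wild-type p53, 46.7 CPM with ATO and 41.2 CPM without in p53-M133T cells, 46.4 CPM with ATO and 42.2 CPM without in p53-R273H cells, and 44.4 CPM with ATO and 37.0 CPM without in vector cells, a fold over vector of 1.70 (1.58 to 1.83).

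VEGFA, the main blood vessel growth factor and a textbook HIF target, had the lowest ratio of the group. It had 128 CPM with wild-type p53, 122 CPM with ATO and 86.8 CPM without in p53-M133T cells, 125 CPM with ATO and 85.7 CPM without in p53-R273H cells, and 124 CPM with ATO and 91.3 CPM without in vector cells. The wild-type library stood only just above the 3 ATO libraries, and its fold over vector was 1.40 (1.33 to 1.47).

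The glycolytic enzymes were also all higher with wild-type p53, most of them by less than 2-fold. ALDOC, the aldolase isozyme best known from brain, stood apart from the rest of the pathway with 374 CPM with wild-type p53, 28.6 CPM with ATO and 60.8 CPM without in p53-M133T cells, 18.4 CPM with ATO and 49.9 CPM without in p53-R273H cells, and 21.9 CPM with ATO and 59.1 CPM without in vector cells. The wild-type library was above all others, the other untreated libraries came next and the ATO libraries were lowest. Its fold over vector was 6.33 (6.03 to 6.64).

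ENO2, the neuronal enolase, had 329 CPM with wild-type p53, 92.6 CPM with ATO and 107 CPM without in p53-M133T cells, 78.2 CPM with ATO and 102 CPM without in p53-R273H cells, and 85.7 CPM with ATO and 92.8 CPM without in vector cells. Its fold over vector was 3.54 (3.40 to 3.69). PGK1, phosphoglycerate kinase, which makes the first ATP of the pathway, had 1415 CPM with wild-type p53, 560 CPM with ATO and 602 CPM without in p53-M133T cells, 518 CPM with ATO and 524 CPM without in p53-R273H cells, and 553 CPM with ATO and 570 CPM without in vector cells. Its fold over vector was 2.48 (2.44 to 2.53), and the other 6 libraries lay within a narrow range.

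LDHA, the lactate dehydrogenase subunit that turns pyruvate into lactate, had 2972 CPM with wild-type p53, 903 CPM with ATO and 1406 CPM without in p53-M133T cells, 793 CPM with ATO and 1289 CPM without in p53-R273H cells, and 877 CPM with ATO and 1269 CPM without in vector cells. The 7 libraries fell into 3 levels, with wild-type p53 at the top and the ATO libraries at the bottom. The fold of wild-type p53 over vector was 2.34 (2.31 to 2.37). GPI, glucose-6-phosphate isomerase, and ALDOA, the main aldolase, were 2.18-fold (2.14 to 2.21) and 2.10-fold (2.08 to 2.13) higher.

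Lower folds over vector were those of GAPDH at 1.70, PKM, pyruvate kinase, at 1.67, the hexokinases HK2 at 1.66 and HK1 at 1.63, ENO1, the main enolase, at 1.52, PFKP, the platelet phosphofructokinase, at 1.39 and TPI1, triosephosphate isomerase, at 1.33. The lowest ratios belonged to PGAM1, phosphoglycerate mutase, and PFKL, the liver phosphofructokinase. PGAM1 had 831 CPM with wild-type p53, 512 CPM with ATO and 729 CPM without in p53-M133T cells, 469 CPM with ATO and 649 CPM without in p53-R273H cells, and 509 CPM with ATO and 663 CPM without in vector cells, a fold over vector of 1.25 (1.23 to 1.28). PFKL had 191 CPM with wild-type p53, 125 CPM with ATO and 160 CPM without in p53-M133T cells, 109 CPM with ATO and 143 CPM without in p53-R273H cells, and 113 CPM with ATO and 156 CPM without in vector cells, a fold over vector of 1.22 (1.18 to 1.27). Annotated pseudogenes named after the gene number 62 for GAPDH, 39 for BNIP3, 13 for PGAM1 and 6 for LDHA, and how reads shared with such copies were counted is not given in the sources used here.

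In the aldolase and enolase pairs the scarcer isozyme had the larger fold. In TPM (transcripts-per-million), which divides by exon length, ALDOC had 546 TPM with wild-type p53 and 80.3 TPM in vector, whereas ALDOA had 2896 TPM with wild-type p53 and 1283 TPM in vector. ENO2 had 328 TPM with wild-type p53 and 86.3 TPM in vector, whereas ENO1 had 3051 TPM with wild-type p53 and 1871 TPM in vector. Across the 39 genes the highest level per length was that of GAPDH, with 11408 TPM with wild-type p53 and 6256 TPM in vector. The lowest was that of EGLN3 with wild-type p53, 8.34 TPM, and that of CA9 in vector, 1.08 TPM.

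The transporters and flux regulators spanned the same range. SLC2A3, the high-affinity neuronal glucose transporter GLUT3, had 83.1 CPM with wild-type p53 and between 7.28 and 10.7 CPM in the other 6 libraries, a fold over vector of 9.54 (8.46 to 10.8). SLC2A1, the general glucose transporter GLUT1, was 1.83-fold (1.79 to 1.88) higher, and SLC16A3, the lactate exporter MCT4, was 1.29-fold (1.26 to 1.33) higher. CSNK1D, whose exons overlap SLC16A3 on the opposite strand, had 239 CPM with wild-type p53 and 189 CPM in vector, and no source used here says whether the counting used strand. The kinases that inactivate pyruvate dehydrogenase were 3.32-fold (3.04 to 3.62) higher for PDK1 and 2.39-fold (2.06 to 2.76) higher for PDK3. Of the enzymes that set fructose-2,6-bisphosphate, PFKFB4 was 2.41-fold (2.22 to 2.62) higher and PFKFB3 1.34-fold (1.27 to 1.42).

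The factors themselves differed less. HIF1A had 210 CPM with wild-type p53, 253 CPM with ATO and 181 CPM without in p53-M133T cells, 265 CPM with ATO and 214 CPM without in p53-R273H cells, and 268 CPM with ATO and 212 CPM without in vector cells. The wild-type library lay inside the range of the untreated libraries, with a fold over vector of 0.991 (0.956 to 1.03). EPAS1, which encodes HIF-2 alpha, had 115 CPM with wild-type p53, 84.2 CPM with ATO and 76.5 CPM without in p53-M133T cells, 81.2 CPM with ATO and 84.3 CPM without in p53-R273H cells, and 79.0 CPM with ATO and 75.1 CPM without in vector cells. Its fold over vector was 1.53 (1.45 to 1.61), with the wild-type library above the rest.

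**Figure D2:**
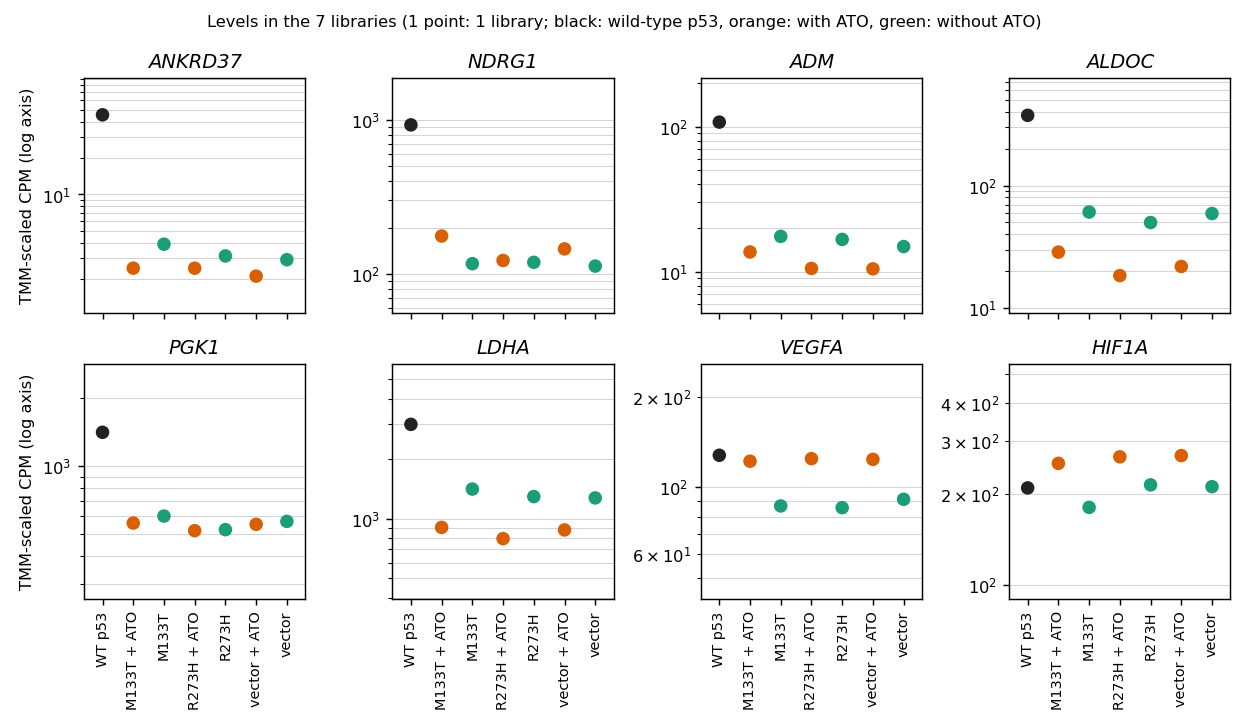
TMM-scaled CPM on a log axis (y) in each of the 7 libraries (x) for 8 genes; each point is 1 library. ANKRD37, NDRG1, ADM, ALDOC, PGK1 and LDHA have their highest point in the wild-type p53 library, VEGFA has 128 CPM there and 122 to 125 CPM in the ATO libraries, and HIF1A is higher in the 3 ATO libraries than in the other 4.

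Against all 6 other libraries, wild-type p53 was the highest for 38 of 39 genes, a position it held for 29.3% of all genes, and it was above the 3 other untreated libraries for the same number of members, against 39.8% of all genes. It was at least 2-fold above each of the 3 other untreated libraries for 18 of the 39, against 2.14% of all genes. With p53-M133T in place of vector, 20 of the 39 were at least 2-fold higher with wild-type p53, against 3.55% of all genes. With p53-R273H in its place 19 were, against 3.19% of all genes. The 3 other untreated libraries differed little among themselves, with a median ratio of the highest to the lowest of 1.12 over the 39 genes. All 3 comparisons share the wild-type library, whose summed leukocyte and erythroid markers lay above those of the other 6 libraries. Its summed colon epithelium markers, at 3988 CPM, lay inside the range of the other 6, 3304 to 4949 CPM. The part of other cells in the differences from the wild-type library was not tested.

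Between the mutant forms and vector, all untreated, the pathway hardly differed. In p53-M133T cells 0 of 39 genes lay at least 2-fold above vector and 0 as far below it, beside 0.0948% and 0.111% of all genes. In p53-R273H cells both counts were also 0, beside 0.0711% and 0.103% of all genes. The median log2 ratio of the glycolytic enzymes was 0.13 for p53-M133T and -0.02 for p53-R273H, and that of the targets outside glycolysis was 0.00 for p53-M133T and 0.08 for p53-R273H. In the comparison of p53-M133T with vector, the log2 ratio of all genes correlated across genes with exon length at a Spearman rho of -0.431 and with GC content at 0.391. For p53-R273H against vector rho was 0.299 with exon length and -0.183 with GC content.

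**Figure D3:**
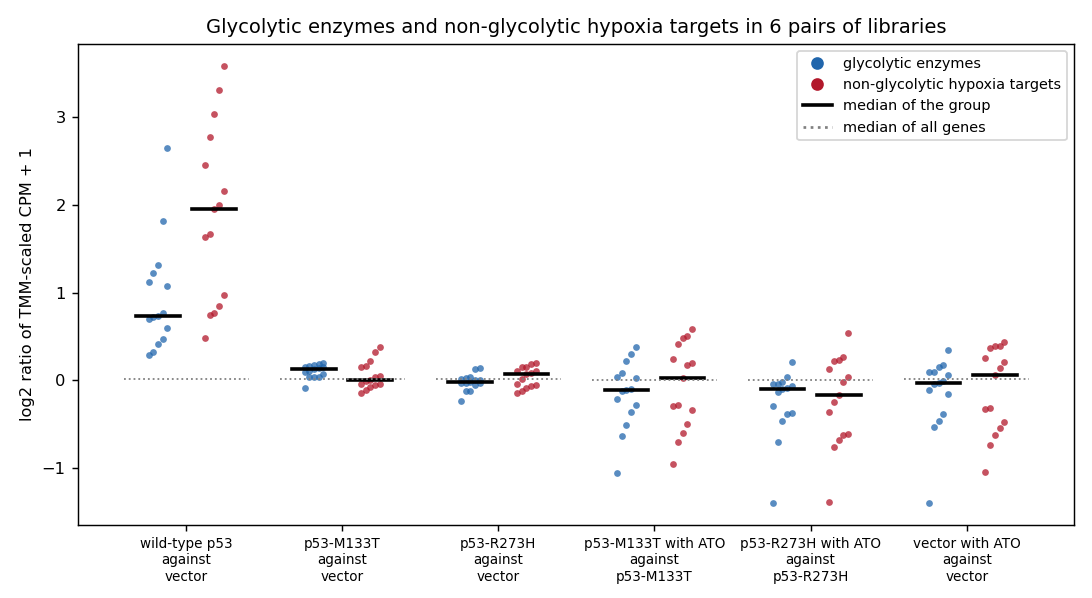
Log2 ratio of TMM-scaled CPM, with 1 CPM added (y), of the 15 glycolytic enzymes (blue) and the 15 hypoxia targets outside glycolysis (red) in 6 pairs of libraries (x); each point is 1 gene, the black bar is the median of the group and the dotted line the median of all genes. With wild-type p53 the medians are 0.74 for the enzymes and 1.95 for the other targets, and in the other pairs both lie between -0.16 and 0.13.

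Each line alone gave 0 members at least 2-fold higher with ATO. With 1 CPM added to both values, ALDOC was at least 2-fold lower in all 3 lines, and ANGPTL4 in p53-R273H and vector cells. The added CPM decided the rest of that count, since without it ANGPTL4 stood at 0.462-fold (0.381 to 0.559) in p53-M133T cells and EGLN3 at 0.497-fold (0.367 to 0.667) in vector cells. The few counts of CA9 were also lower by more than 2-fold in each line, in p53-R273H cells at 0.218-fold (0.0401 to 0.780). The intervals given here also hold falls of less than 2-fold. Of all genes, with 1 CPM added, 1.35% were at least 2-fold higher and 0.971% lower in p53-M133T cells, 0.592% higher and 0.782% lower in p53-R273H cells, and 0.671% higher and 0.987% lower in vector cells.

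The response to ATO was tested over the 3 lines that have an ATO library (vector, p53-M133T and p53-R273H), with the line as a block. In edgeR's quasi-likelihood test, at a Benjamini-Hochberg adjusted p under 0.05, 9 of the 39 members rose with ATO and 15 fell. Of the 13343 genes tested, 22.5% rose and 21.3% fell, beside 23.1% and 38.5% of the 39 members, so the share that rose was near the background. Every called member moved the same way in all 3 lines. A call over these same 3 pairs favours such genes, so this adds no support. The same holds below where the ATO and untreated libraries of a called gene do not overlap. Of all genes with at least 1 CPM in a library, 35.5% were higher and 33.6% lower with ATO in all 3 lines. Among the glycolytic enzymes 1 rose and 6 fell, and among the targets outside glycolysis 6 rose and 7 fell. The lines stand in for replicates, the test has 2 residual degrees of freedom, and p-values measure the spread between lines.

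VEGFA had the largest rise, being higher in all 3 ATO libraries than in any untreated library of these lines, at the values already given, with a fold of 1.40 (log2 0.48 ± 0.05 SE, edgeR adjusted p = 0.000519). KDM3A had 84.0 CPM with ATO and 58.8 CPM without in p53-M133T cells, 82.9 CPM with ATO and 68.5 CPM without in p53-R273H cells, and 84.1 CPM with ATO and 63.7 CPM without in vector cells, and 126 CPM with wild-type p53. The ATO libraries were alike and above the untreated libraries of the same 3 lines, and the fold was 1.31 (log2 0.39 ± 0.06 SE, edgeR adjusted p = 0.00245).

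HIF1A also rose, with a fold of 1.29 (log2 0.37 ± 0.06 SE, edgeR adjusted p = 0.00200), and its ATO libraries lay above all 4 libraries without ATO. EPAS1 did not pass the test, at a fold of 1.03 (edgeR adjusted p = 0.572). BNIP3L had 82.6 CPM with ATO and 61.8 CPM without in p53-M133T cells, 77.7 CPM with ATO and 66.4 CPM without in p53-R273H cells, and 89.9 CPM with ATO and 68.1 CPM without in vector cells, and 213 CPM with wild-type p53. Within these 3 lines the ATO and untreated libraries did not overlap, while wild-type p53 was above both, and the fold was 1.27 (log2 0.34 ± 0.06 SE, edgeR adjusted p = 0.00349). Its relative BNIP3 fell, with a fold of 0.737 (log2 -0.44 ± 0.09 SE, edgeR adjusted p = 0.00514).

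The other genes that rose did so by less. They were NDRG1 with a fold of 1.26, PFKP with 1.21, MXI1 with 1.17, P4HA2 with 1.14 and PFKFB3 with 1.13, at edgeR adjusted p between 0.00436 for PFKP and 0.0322 for P4HA2. Without the vector pair 3 members rose and 11 fell, beside 1511 and 1403 of 13389 genes. Of the 9 that rose only VEGFA, KDM3A and HIF1A were still called.

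The largest falls were those of CA9, ANGPTL4, ALDOC and EGLN3. CA9 was called (edgeR adjusted p = 0.00784) on the few counts given above, too few for a fitted fold to be read. ARHGEF39 on the opposite strand also fell with ATO, at a log2 of -0.45 (edgeR adjusted p = 0.00299), and its part in the counts of CA9 was not tested. ANGPTL4 fell to a fold of 0.392 (log2 -1.35 ± 0.15 SE, edgeR adjusted p = 0.000455), and ALDOC to a fold of 0.400 (log2 -1.32 ± 0.08 SE, edgeR adjusted p = 5.39e-05), with no overlap between ATO and untreated libraries of the 3 lines for either. EGLN3 had 2.06 CPM with ATO and 3.65 CPM without in p53-M133T cells, 2.02 CPM with ATO and 3.61 CPM without in p53-R273H cells, and 1.90 CPM with ATO and 3.82 CPM without in vector cells, and 14.4 CPM with wild-type p53. The 3 lines were alike in both states, and the fold was 0.537 (log2 -0.90 ± 0.16 SE, edgeR adjusted p = 0.00329).

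Other targets outside glycolysis that fell were BHLHE40 with a fold of 0.672, ADM with 0.700 and ANKRD37 with 0.710, at edgeR adjusted p of 0.00205 for BHLHE40, 0.00295 for ADM and 0.0388 for ANKRD37. The call of ANKRD37 was lost without any 1 of the 3 lines, while UFSP2 on the opposite strand was higher with ATO by a log2 of 0.35 (edgeR adjusted p = 0.00292). P4HA1 at a fold of 1.04 and EGLN1 at 1.01 did not pass the test.

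The glycolytic enzymes that fell were ALDOC, LDHA, PGAM1, PFKL, TPI1 and ENO2. LDHA, which acts on pyruvate, fell to a fold of 0.645 (log2 -0.63 ± 0.05 SE, edgeR adjusted p = 0.000139), and PGAM1 fell to 0.727 (log2 -0.46 ± 0.05 SE, edgeR adjusted p = 0.000455). PFKL fell to 0.751 (log2 -0.41 ± 0.06 SE, edgeR adjusted p = 0.00102), whereas its isozyme PFKP rose. ENO2 fell to 0.846 and TPI1 to 0.841, at edgeR adjusted p of 0.0180 for ENO2 and 0.00561 for TPI1. The abundant isozymes ALDOA, with a fold of 1.00, and ENO1, with 0.938, did not pass the test, nor did HK1, HK2, GPI, GAPDH, PGK1 and PKM, whose folds ran between 0.940 for PKM and 1.11 for HK2.

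Of the flux regulators, PFKFB4 fell to a fold of 0.703 and PDK3 to 0.765, at edgeR adjusted p of 0.00155 for PFKFB4 and 0.0456 for PDK3, while PFKFB3 rose and PDK1, at a fold of 1.15, did not pass. The DESeq2 Wald test did not call P4HA2, PFKFB3, ANKRD37 and PDK3 and gave CA9 no adjusted p. Without the vector pair the falls of ENO2, TPI1 and PDK3 were not called either, and without the p53-R273H pair those of ENO2 and PDK3 and the rises of P4HA2 and PFKFB3 were not, while HK2 and PDK1 were called as rising. The transporters gave 0 calls, 0 also at an unadjusted p under 0.05 and 0 under the DESeq2 Wald test. SLC2A3 went different ways in the lines, and its ratio of ATO to no ATO was 1.30 (1.12 to 1.51) in p53-M133T cells, 0.683 (0.579 to 0.803) in the p53-R273H line and 1.18 (1.01 to 1.38) in the vector line.

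**Figure D4:**
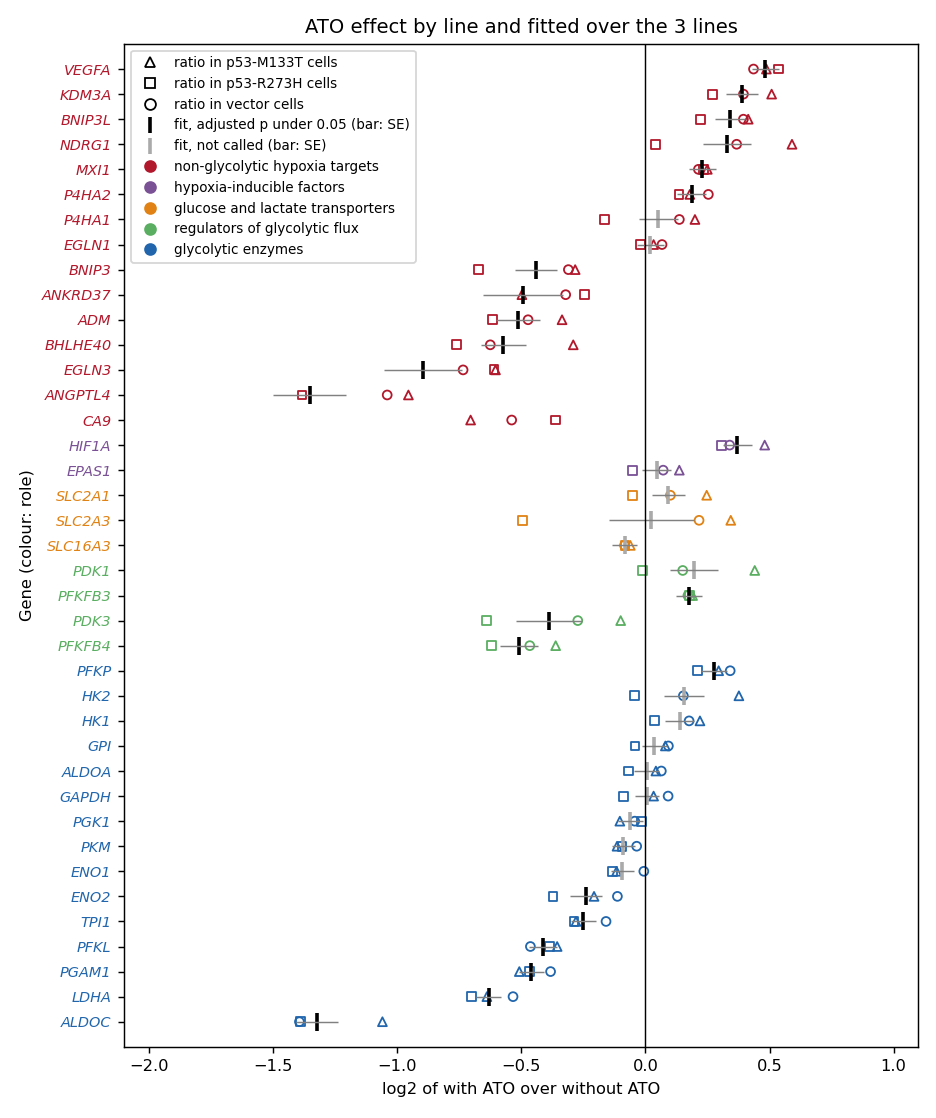
Log2 of ATO over no ATO (x) for the 39 genes (y, coloured by role); open symbols are the ratios of TMM-scaled CPM, with 1 CPM added, in each of the 3 lines, and vertical ticks are the edgeR fit over the lines with its SE as a bar, black where the adjusted p was under 0.05. The fit of CA9 is off the scale and not drawn; VEGFA is the highest of the fitted genes and ALDOC and ANGPTL4 lie farthest to the left.

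Base composition and, in p53-M133T cells above all, exon length moved with these ATO ratios. Across all genes the log2 ratio of ATO to no ATO correlated with the GC content of the exons at a Spearman rho of -0.366 in p53-M133T cells, -0.376 in the p53-R273H line and -0.349 in the vector line. With exon length rho was 0.317 in p53-M133T cells, 0.0276 in the p53-R273H line and 0.121 in the vector line. The median GC content was 53.3% for the glycolytic enzymes and 49.4% for the targets outside glycolysis, against 49.0% for all genes. With offsets for GC content and exon length in the fit, 15 members rose and 13 fell, and over all genes 3989 rose and 2033 fell, against 3003 and 2845 without them. That correction moved the enzymes to 5 that rose and 4 that fell, and left the targets outside glycolysis at 6 and 7. It added ALDOA, GAPDH, HK1, HK2, SLC2A1 and SLC16A3 to those that rose and removed ENO2 and TPI1 from those that fell.

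Set against each other within a line, both groups of genes gave no steady contrast under ATO. The median log2 ratio of the glycolytic enzymes less that of the targets outside glycolysis was -0.15 in p53-M133T cells, 0.07 in the p53-R273H line and -0.10 in the vector line. With wild-type p53 over vector the same difference was -1.21.

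Whether the ATO effect of a line differed from the mean effect of the other 2 was tested for each line in turn, with 1 residual degree of freedom. Each line's effect is 1 library against 1, so the spread behind these p-values is only how far the ATO effects of the other 2 lines lie apart, pooled over genes, and it holds no replicate of the line tested. In p53-M133T cells the effect was higher for 4 of 39 genes (10.3%) and lower for 0, where 6.61% of all genes were higher and 2.68% lower. The count of 4 was thus near the background. At an unadjusted p under 0.05 it was higher for 8 and lower for 0, where 12.9% of all genes were higher and 8.33% lower. The 4 called were HK2, ALDOC, NDRG1 and BHLHE40. For HK2, the hexokinase induced in many tumours, the levels were 222 CPM with wild-type p53, 164 CPM with ATO and 126 CPM without in p53-M133T cells, 134 CPM with ATO and 138 CPM without in p53-R273H cells, and 149 CPM with ATO and 134 CPM without in vector cells. Its ATO effect was 0.33 ± 0.09 SE higher on the log2 scale in p53-M133T cells (edgeR adjusted p = 0.00463).

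NDRG1 was 1.51-fold (1.45 to 1.57) higher with ATO in p53-M133T cells, 1.03-fold (0.985 to 1.07) in the p53-R273H line and 1.29-fold (1.24 to 1.35) in the vector line, a log2 difference of 0.40 ± 0.09 SE (edgeR adjusted p = 0.000363), although the vector and p53-R273H lines lay farther apart than p53-M133T and vector. BHLHE40 had 79.7 CPM with ATO and 97.7 CPM without in p53-M133T cells, 59.6 CPM with ATO and 102 CPM without in p53-R273H cells, and 64.8 CPM with ATO and 100.5 CPM without in vector cells, and 450 CPM with wild-type p53. It was lower with ATO in every line, and least so in p53-M133T cells, with a log2 difference of 0.42 ± 0.09 SE (edgeR adjusted p = 0.000385). ALDOC likewise was lower with ATO in every line, and least so in p53-M133T cells, with a log2 difference of 0.36 ± 0.12 SE (edgeR adjusted p = 0.0271).

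These 4 calls used a spread pooled over genes and not that of the gene itself, because the prior degrees of freedom were estimated as infinite. The DESeq2 Wald test called 0 of them and gave 9 other members no adjusted p. In the tests of p53-R273H and of vector 0 members were called in either direction by edgeR or by DESeq2, with 0.112% and 0.0375% of all genes called higher and lower for p53-R273H and 0% each way for vector. At an unadjusted p under 0.05, edgeR gave 0 members higher and 4 lower for p53-R273H, beside 1.88% and 2.54% of all genes, and 0 each way for vector, beside 0.345% and 0.824%. Without a test, the ATO ratio was highest in p53-M133T cells for 23 of 39 genes, against 38.2% of all genes, and lowest in p53-R273H cells for 27 of 39, against 37.2%.

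Further genes of the pathway, 76 in 3 lists, had a median log2 ratio of wild-type p53 to vector of 0.44 over the 62 with at least 1 CPM in a library. Of these, 12 of 35 further hypoxia targets, 1 of 12 oxygen-sensing genes and HIF cofactors and 1 of 15 further glycolytic enzymes and regulators were at least 2-fold higher with wild-type p53 than in vector, and 0 in any list were at least 2-fold lower. The 4 with the highest log2 ratio were LOXL2, a lysyl oxidase that crosslinks collagen, at 3.85-fold (3.64 to 4.07), FAM162A, a mitochondrial protein, at 3.10-fold (2.90 to 3.31), PLOD2, a collagen lysyl hydroxylase, at 2.92-fold (2.74 to 3.11), and CXCR4, a chemokine receptor, at 6.06-fold (3.74 to 10.2) on 3.60 CPM with wild-type p53 and 0.594 CPM in vector. Like CA9, CXCR4 reached 1 CPM in the wild-type library alone and could be counted only as higher.

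With ATO, 9 of 36 further hypoxia targets rose and 12 fell, 5 of 16 further glycolytic genes rose and 4 fell, and 3 of 13 oxygen-sensing genes rose and 2 fell, in the common edgeR test, beside 22.5% and 21.3% of all genes tested. In shares, 25.0% of the further hypoxia targets rose and 33.3% fell, 31.2% of the further glycolytic genes rose and 25.0% fell, and 23.1% of the oxygen-sensing genes rose and 15.4% fell. Among the largest rises were those of HKDC1, a hexokinase-like enzyme, at a fold of 3.52, and KDM6B, a histone H3 lysine 27 demethylase, at 1.49. The largest falls were those of PPFIA4, a liprin, at a fold of 0.314, CXCR4 at 0.392 on under 1 CPM in each of the 6 libraries, and BHLHE41, a relative of BHLHE40, at 0.587. For HKDC1 the ATO libraries had 10.5 CPM against 3.25 CPM in p53-M133T cells, 10.3 CPM against 2.47 CPM in p53-R273H cells and 10.8 CPM against 3.25 CPM in the vector line, while wild-type p53 had 3.02 CPM.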

How the data were processed

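RNA-seq gene counts of 7 libraries were used, with 1 library in each group. Paired reads of 150 bp came from TruSeq mRNA libraries, per the labels' protocols. The authors deposited whole-number counts per gene, not normalized. Their processing notes name FastQC, cutadapt, STAR and hg38, per the submitters. Versions, the counting program, its annotation and strandedness are not given in the sources. Whether reads of genes that overlap on opposite strands were told apart is therefore not known.

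All 19699 identifiers were found in GENCODE release 29, which gave coordinates, exon lengths and GC contents, and 37 symbols were replaced by those of GENCODE. Counts were scaled with TMM in edgeR 4.0.16 (R 4.3.3). Ratios of 2 libraries took a pseudocount of 1 CPM over the 12661 genes that reached 1 CPM in any library. Printed folds of 2 libraries took no pseudocount, and their 95% Clopper-Pearson intervals (SciPy 1.17.1) cover counting error only, since without molecular identifiers reads need not be independent molecules.

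ATO was tested with edgeR's quasi-likelihood test after its filter on low counts (minimum count 10), with Benjamini-Hochberg adjustment over 13343 genes at 0.05. The common test had the cell line as a block and 2 residual degrees of freedom, with prior degrees of freedom of 5.86. The test of each line against the other 2 had 1 residual degree of freedom, and its prior degrees of freedom were infinite for p53-M133T, 15.6 for p53-R273H and 7.38 for vector. Wild-type p53 was left out of the tests, having no ATO library. The scripts were tested on simulated data. Pairs come from a shared cell line. After each treatment's mean was removed, both libraries of a line correlated at 0.0587 for p53-M133T, 0.101 for p53-R273H and -0.0548 for vector.

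Members and lists were chosen with earlier results of these data known. Values in every library were given for HIF1A, EPAS1 and VEGFA, for the 4 highest and 2 lowest ratios of wild-type p53 to vector within the glycolytic enzymes and within the targets outside glycolysis, for the 4 largest called rises and falls with ATO, and for every member called in a test of 1 line. Of the other pathway genes, the 4 highest ratios of wild-type p53 to vector and the 3 largest called rises and falls with ATO were named, except for results that are not reported here. Alternatives were DESeq2 1.42.0 size factors and its Wald test, no filter, no block, leaving out each line, offsets for exon length and GC content, other pseudocounts (0.5 and 5 CPM), other floors (10 CPM and none), total-count scaling and other reference libraries.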

Additional observations from a re-analysis of the deposited data

Results flagged for a closer look

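Of the 39 members, 4 had an ATO effect in p53-M133T cells that differed from the mean effect of the other 2 lines. The test was of the difference itself (edgeR's quasi-likelihood test, Benjamini-Hochberg adjusted over all genes tested). In the same test 6.61% of all genes were called higher and 2.68% lower, beside 10.3% and 0% of the members. The count of 4 was thus near the background. The difference on the log2 scale was 0.33 for HK2 (adjusted p = 0.00463), 0.36 for ALDOC (adjusted p = 0.0271), 0.40 for NDRG1 (adjusted p = 0.000363) and 0.42 for BHLHE40 (adjusted p = 0.000385), higher in p53-M133T cells for all 4. With ATO over without, HK2 stood at 1.30-fold in p53-M133T cells, 0.970-fold in p53-R273H cells and 1.11-fold in vector cells, and NDRG1 was above 1 in all 3 lines. ALDOC stood at 0.471-fold in p53-M133T cells, 0.369-fold in p53-R273H cells and 0.370-fold in vector cells. BHLHE40 stood at 0.816-fold in p53-M133T cells, 0.585-fold in p53-R273H cells and 0.645-fold in vector cells. Each line had 1 library with ATO and 1 without, so the p53-M133T effect has no replicate, and the spread behind these p-values is the difference between the other 2 lines alone, at 1 residual degree of freedom and pooled over genes. For NDRG1 the ratio was 1.51 in p53-M133T cells, 1.03 in the p53-R273H line and 1.29 in the vector line, the other 2 lines being farther apart than p53-M133T and vector. The DESeq2 Wald test gave adjusted p of 0.316 for HK2, 0.671 for ALDOC, 0.744 for NDRG1 and 0.237 for BHLHE40. With offsets for exon length and GC content, added after seeing the data, the adjusted p was 0.127 for NDRG1 and 0.0320 for HK2, 0.00501 for ALDOC and 0.000230 for BHLHE40, and without the filter on low counts it was 0.0664 for ALDOC. With DESeq2 size factors in the edgeR fit it lay between 0.00460 for BHLHE40 and 0.0475 for ALDOC.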

How the results depend on the processing

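Each group had 1 library, and a line could be left out of the common ATO test alone, since a test of 1 line against the others then keeps no residual degree of freedom. With wild-type p53 over vector, 19 or 20 members were at least 2-fold higher under every pseudocount, scaling, floor and reference library tried. The count was 14 when genes with an exon overlapping another protein-coding gene were left out, a choice made after seeing the data. That took out GPI, TPI1, PGK1, SLC16A3, PFKFB4, CA9, ANKRD37 and BNIP3L. All of these but TPI1 and SLC16A3 were at least 2-fold higher, so the smaller count comes from fewer members being counted. The median of the glycolytic enzymes less that of the other targets was -0.84 with 5 CPM added, -1.07 with a floor of 10 CPM, -1.28 against p53-M133T, -0.99 against p53-R273H and -1.13 with transporters and flux regulators added to the enzymes. With ATO it was -0.22 in p53-M133T cells with a floor of 10 CPM, and in p53-R273H cells -0.0082 with 5 CPM added and -0.0011 with a floor of 10 CPM, against 0.07 in the main setting.

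In the common ATO test, leaving out 1 line gave between 3 and 9 members that rose and between 11 and 14 that fell, and between 1511 and 3585 genes that rose and 1403 and 3254 that fell, lowest each time without the vector pair. Without the replicate block, which is the cell line, 8 members rose and 15 fell, beside 2620 and 2656 of 13343 genes. With DESeq2 7 members rose and 12 fell, beside 2482 and 2024 of 18960 genes, CA9 having no adjusted p there. With offsets for length and GC content 15 members rose, beside 3989 of 13343 genes. The log2 effect then changed sign to 0.017 for ENO1, 0.16 for SLC16A3 and -0.0010 for EGLN1. Leaving out 1 line, it ran between -0.011 and 0.047 for ALDOA, -0.022 and 0.056 for GAPDH, -0.16 and 0.30 for SLC2A3 and -0.022 and 0.17 for P4HA1. The causes were not tested.

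For p53-M133T against the other lines, DESeq2 called 0 members, and 154 genes rose and 3 fell. There, DESeq2 size factors gave 197 genes that fell, and the offsets gave 357 genes that rose and 1 member that fell, VEGFA. For p53-R273H, 35 genes rose and 66 fell without the filter, 3 and 1 with DESeq2 and 0 and 1 with the offsets. For vector, 2 rose and 3 fell without the filter, 2 fell with DESeq2, and 1 rose and 2 fell with the offsets. With 5 CPM added, 186 genes were at least 2-fold higher and 128 lower with wild-type p53. For p53-M133T against vector these counts were 19 and 31 with 0.5 CPM added, 2 and 0 with 5 CPM added and 2 and 6 with a floor of 10 CPM, and for p53-R273H 15 and 27, 1 and 0, and 2 and 1.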
